A study of Homo sapiens with 5 samples.

Results

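Interferon-stimulated genes are the transcripts that cells switch on after sensing viral or other foreign nucleic acid. Of 42 such genes chosen by name, 41 had a row with 1 annotated symbol on the array, and STAT2 was not analysed here. Each of the 41 had a single such row, out of 18417 genes with 1 row each. They were read in 5 cultures of D54, an established human glioma cell line, with 1 whole-transcript Affymetrix array each. The 3 tested arrays came from cells transfected with an shRNA against TIP-1 (gene TAX1BP3, a small PDZ domain protein), each with a different hairpin, named shRNA 1, shRNA 2 and shRNA 3. The 2 control arrays came from independent clones that carried a control shRNA, so all 5 cultures carried a hairpin, and no cells without an shRNA were analysed here. Whether each TIP-1 shRNA culture was a clone or a pool is not given in the sources used here. Signals are log2 values as deposited, and a difference is TIP-1 shRNA minus control shRNA. A difference of 1 log2 unit is 2-fold.

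Double-stranded RNA in the cytoplasm is bound by the helicases RIG-I and MDA5 (gene IFIH1), which signal through MAVS and the kinase TBK1 to IRF3 and lead to secretion of interferon beta. Interferon binds the receptor chains IFNAR1 and IFNAR2, and the kinases JAK1 and TYK2 then activate transcription factors such as STAT2, which with IRF9 binds a promoter sequence called the interferon-stimulated response element. Some shRNA vectors are known to set off this pathway in cultured cells, with OAS1 often used as the indicator gene. The question put to the members was therefore whether any of the 3 hairpins came with an interferon response that the controls lacked, and which members were lower. A response shared by the control shRNA would not appear as a difference.

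The silenced gene was read first. TAX1BP3 gave 9.81, 9.61 and 9.55 with shRNAs 1, 2 and 3, against 12.05 and 12.10 in the controls (log2 difference -2.42, SE 0.105, limma adjusted p = 0.011), so all 3 hairpins matched their label. Its row is also annotated to a read-through transcript with the neighbouring gene P2RX5. The difference stayed between -2.50 and -2.37 when any 1 array was left out, but it no longer passed without either control or without shRNA 2 (limma adjusted p = 0.386, 0.387 and 0.129). Across 33297 rows, 0 rows were called higher and 1 lower, which was TAX1BP3. Array medians lay between 7.88 and 7.95 with TIP-1 shRNA and at 7.96 and 7.98 in the controls. When limma estimated a quality weight for each array, shRNA 3 received the lowest, 0.405, and shRNA 2 the highest, 2.79. The glioma-associated genes VIM and CD44 read between 13.73 and 14.02 on every array. GFAP, SOX2, OLIG2 and S100B read between 6.23 and 8.14, and the table holds no detection call, so the astroglial markers could not be called present. EGFR read 11.12 to 11.17 with TIP-1 shRNA and 11.23 to 11.30 in the controls. NES read 7.78 to 7.94 with TIP-1 shRNA and 7.91 to 8.06 in the controls. These 8 markers summed to 74.93 to 75.79 with TIP-1 shRNA and 75.77 to 76.04 in the controls. The leukocyte gene PTPRC read 8.39, 7.75 and 6.84 with shRNAs 1, 2 and 3, against 8.65 and 7.32 in the controls. Summed over 7 measured markers of leukocytes and microglia, signals ran from 47.75 to 49.67 with TIP-1 shRNA and from 48.52 to 50.06 in the controls. For 3 markers of plasmacytoid dendritic cells they ran from 23.22 to 23.29 with TIP-1 shRNA and from 23.13 to 23.29 in the controls. Within that sum TCF4, the brightest, lay above both controls with every hairpin (difference 0.18). IL3RA and CLEC4C differed by -0.07 and -0.06. Endothelial markers summed to 27.09 to 27.39 with TIP-1 shRNA and 27.34 to 27.61 in the controls, with 4 markers measured. Fibroblast markers summed to 39.46 to 41.00 with TIP-1 shRNA and 39.42 to 40.28 in the controls, and epithelial markers to 31.79 to 32.96 with TIP-1 shRNA and 32.92 to 33.05 in the controls, again with 4 markers each. PDGFRB, a fibroblast and pericyte gene, read 8.67, 8.85 and 9.71 with shRNAs 1, 2 and 3, against 8.59 and 8.56 in the controls. EPCAM, an epithelial gene, read 6.55, 6.22 and 5.88, against 6.75 and 6.75 in the controls. PDGFRB and EPCAM were furthest from the controls with shRNA 3. Other markers of the same lists went the other way. The fibroblast marker THY1 lay below both controls with every hairpin (difference -0.17). The epithelial marker CDH1 lay above both with every hairpin (difference 0.08). No defining marker was listed at 0, and the part of other cells in the results below was not tested. In such bulk RNA, fewer cells with a transcript and less of it per cell cannot be told apart.

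The response element can be seen in the promoters of several members. RefSeq windows of 300 bases (GRCh38.p14, 250 before to 50 after the annotated start) were found for 33 of the 41 members. The letters GAAANNGAAA, searched on both strands with overlapping matches counted, stood in at least 1 window of 23 of these 33 genes, 69.7%, against 4.38% of the 27305 genes in the promoter table. The 5 windows below all hold the motif, with matches in capitals. IFI44, IFI44L, HERC5 and BST2 are among the lower members described later, and IFI6 is not. Other lower members have a window with 0 matches, among them SAMD9L, HERC6 and XAF1. The display therefore does not tie the motif to the pattern, and counts over all members with a window are given later. IFI44 and IFI44L are neighbours that lay below both controls with every TIP-1 hairpin. HERC5 and BST2 lay below both controls with shRNAs 1 and 2. With shRNA 3, HERC5 was level with control 1 and BST2 lay between the controls. IFI6 has as many matches as HERC5 and differed little. The windows lie at chr1:78649539-78649838, plus strand (IFI44), chr1:78620198-78620497, plus strand (IFI44L), chr4:88456869-88457168, plus strand (HERC5), chr19:17405581-17405880, minus strand (BST2) and chr1:27672143-27672442, minus strand (IFI6). Each is printed 5′ to 3′ along its gene.
IFI44: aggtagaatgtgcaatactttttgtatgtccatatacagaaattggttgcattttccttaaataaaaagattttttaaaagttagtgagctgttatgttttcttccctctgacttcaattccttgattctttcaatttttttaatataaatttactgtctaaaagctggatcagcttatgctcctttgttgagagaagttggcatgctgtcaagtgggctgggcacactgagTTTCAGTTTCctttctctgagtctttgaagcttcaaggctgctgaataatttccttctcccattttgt
IFI44L: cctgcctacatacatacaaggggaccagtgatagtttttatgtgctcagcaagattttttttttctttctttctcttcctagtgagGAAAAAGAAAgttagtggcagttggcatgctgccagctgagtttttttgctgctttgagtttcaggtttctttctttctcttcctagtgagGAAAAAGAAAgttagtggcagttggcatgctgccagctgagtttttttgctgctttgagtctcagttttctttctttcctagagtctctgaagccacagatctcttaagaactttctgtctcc
HERC5: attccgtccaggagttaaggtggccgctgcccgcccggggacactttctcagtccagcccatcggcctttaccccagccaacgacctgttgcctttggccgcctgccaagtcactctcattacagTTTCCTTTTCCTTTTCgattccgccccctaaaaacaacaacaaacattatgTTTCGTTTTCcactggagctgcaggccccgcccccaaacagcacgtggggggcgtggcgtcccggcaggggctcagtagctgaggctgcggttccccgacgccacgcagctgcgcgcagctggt
BST2: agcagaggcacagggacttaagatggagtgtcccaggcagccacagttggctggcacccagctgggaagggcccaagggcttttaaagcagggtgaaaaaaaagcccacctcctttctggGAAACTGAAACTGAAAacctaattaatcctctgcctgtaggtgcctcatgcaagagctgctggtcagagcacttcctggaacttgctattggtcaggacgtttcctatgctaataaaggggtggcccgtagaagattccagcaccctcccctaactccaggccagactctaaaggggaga
IFI6: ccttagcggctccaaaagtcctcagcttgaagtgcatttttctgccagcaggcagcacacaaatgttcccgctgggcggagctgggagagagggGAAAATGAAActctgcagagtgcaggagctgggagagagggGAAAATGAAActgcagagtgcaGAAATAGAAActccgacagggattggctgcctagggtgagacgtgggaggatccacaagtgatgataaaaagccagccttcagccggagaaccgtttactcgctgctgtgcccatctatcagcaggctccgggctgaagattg
In IFI44 the 1 match begins 18 bases before the annotated start and reads TTTCNNTTTC, the opposite strand of the motif. IFI44L has 2 matches, beginning 164 and 73 bases before the start. HERC5 has 3 matches, of which 2 overlap, BST2 has 2 that overlap, and IFI6 has 3. A match is only a run of letters in the window and does not show that a factor binds there.

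Taken over all 3 hairpins, the members stood slightly below the controls, and none was called in either direction (limma, adjusted p over all rows under 0.05; smallest among the members 0.707). Over all rows 0% were called higher and 0.003% lower. At an unadjusted p under 0.05, 2 members were lower and 0 higher, that is 4.88% of members, where 2.94% of all genes were lower and 3.08% higher. Of the 41 members, 27 had a difference below 0 and 14 above, against 52.4% of all genes below 0 and 47.6% above. Among the 22 members whose row mean reached the median of all rows, only 11 were below 0. The downward excess thus lay among the 19 dimmer members. Their median difference was -0.09, and that of all genes was -0.01. In 8 members all 3 TIP-1 shRNA arrays lay below both controls, which is 19.5% of members against 14.1% of all genes. In 1 member, IFIT5, all 3 lay above both, where 12.5% of genes did so. The count of 8 became 6 with quantile normalization and with median centring, with no share of all genes given here for these. The 95% interval of the difference stayed under 1 log2 unit for all 41 members, the highest upper bound being 0.89 for MX1. For 5 members the lower bound passed -1, so a 2-fold reduction of the mean was within their interval. The median of the members was -0.04 without shRNA 2, -0.12 without shRNA 3, and -0.03 after each array was centred on its median.

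**Figure D1:**
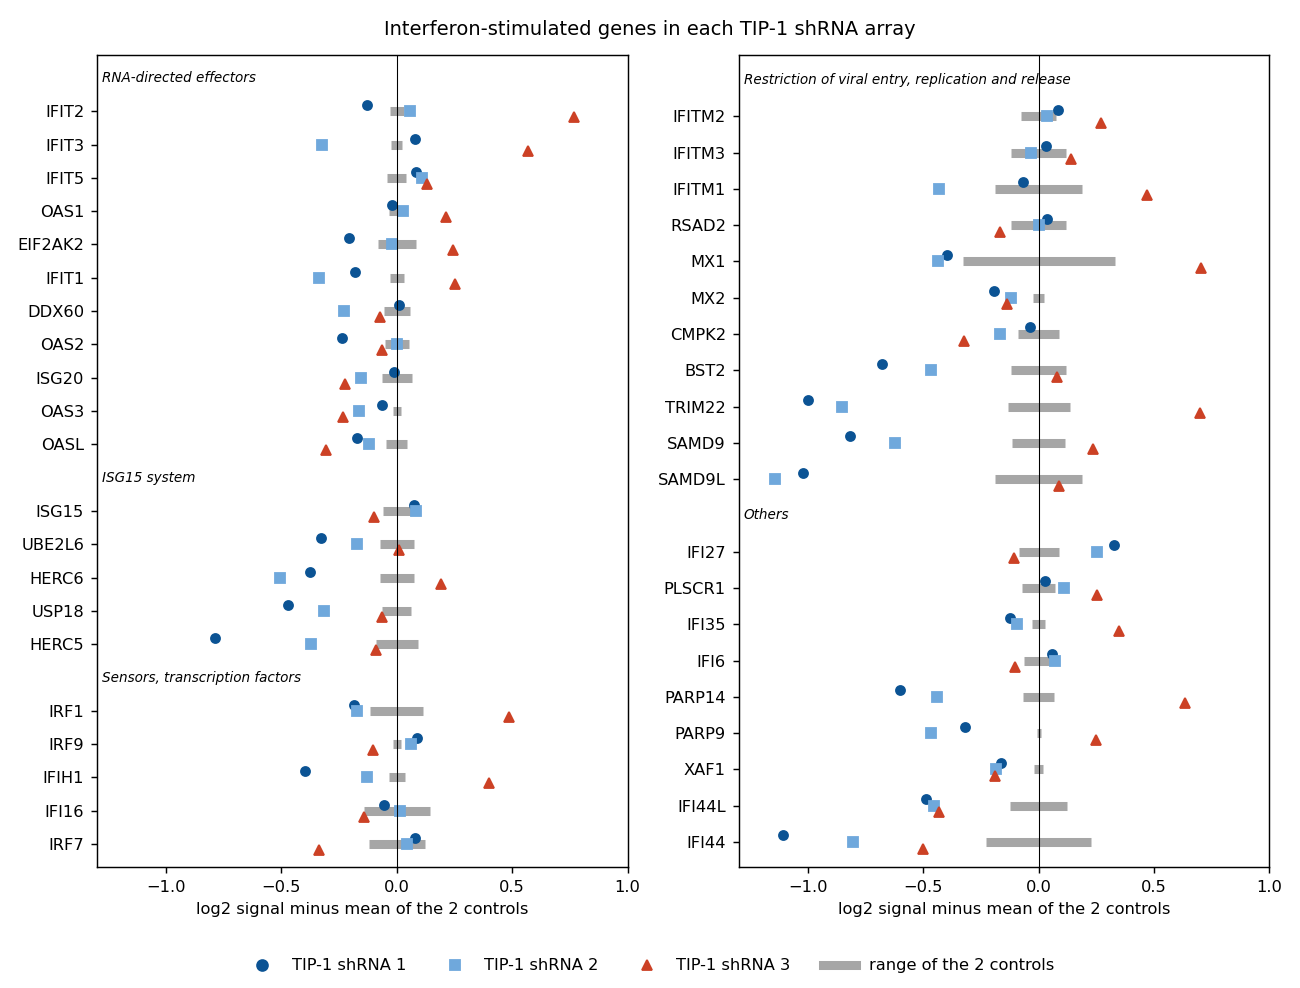
Differences of the 41 measured interferon-stimulated genes from the mean of the 2 controls (x axis, log2 units), 1 symbol per TIP-1 shRNA array, grouped by role and ordered by the mean difference; grey bars span the 2 controls. SAMD9L, SAMD9, TRIM22 and IFI44 reach furthest to the left with shRNAs 1 and 2, while shRNA 3 lies to the right of both for 26 members.

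Read singly, the hairpins differed. With shRNA 1 the median member stood -0.16 from the control mean and with shRNA 2 also -0.16, whereas with shRNA 3 it stood at 0.08. Over all genes these medians were 0.00, -0.01 and -0.02. Each hairpin has 1 array, and the 3 comparisons share their controls, so these values carry no test. Below both controls lay 24 members (58.5%) with shRNA 1 and 26 (63.4%) with shRNA 2, against 31.2% and 37.7% of all genes. With shRNA 3 it was 18 members (43.9%), close to the 41.9% of all genes. Above both controls lay 6, 7 and 19 members with shRNAs 1, 2 and 3, against 32.2%, 30.8% and 35.5% of all genes. The position of the median with shRNA 3 depended on the processing: it was 0.17 after median centring, 0.05 after quantile normalization, -0.01 against control 2 alone and 0.02 against control 1 alone.

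No member was 2-fold above the control mean in any hairpin, while 30, 29 and 99 of all genes were, 0.163%, 0.157% and 0.538%. The member furthest above was IFI27 with shRNA 1 (0.33) and with shRNA 2 (0.25), and IFIT2 with shRNA 3 (0.77). On the lower side, 3 members were at least 2-fold below with shRNA 1 (IFI44, SAMD9L and TRIM22), 1 with shRNA 2 (SAMD9L) and 0 with shRNA 3, where 0.244%, 0.266% and 0.147% of genes were. A second limit of 0.5 log2 units was chosen after the values were seen. It was passed downward by 7, 5 and 1 members with shRNAs 1, 2 and 3, against 1.18%, 1.61% and 1.52% of genes. Upward it was passed by 0, 0 and 5 members, against 0.809%, 0.972% and 3.64% of genes. The 5 were IFIT2, IFIT3, MX1, TRIM22 and PARP14, all with shRNA 3.

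**Figure D2:**
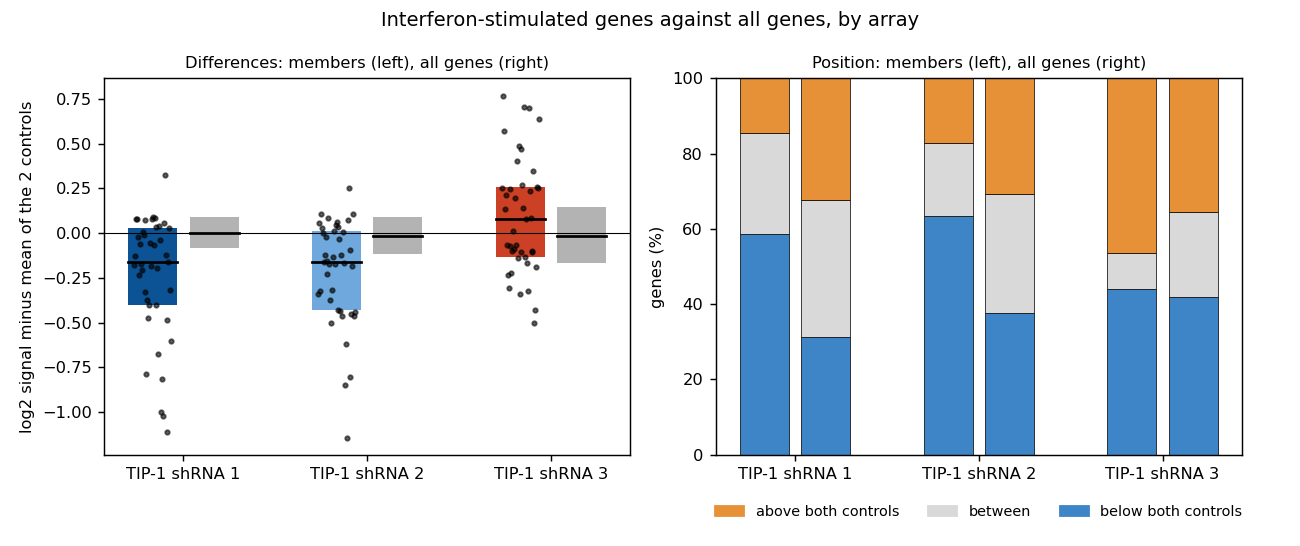
Left, differences from the control mean (y axis, log2 units) for the 41 members (coloured) and all 18417 genes (grey) with each TIP-1 shRNA; boxes span the quartiles, black lines are medians and points are members. Right, share of genes (y axis, %) below, between and above both controls; members lie below both controls more often than all genes do with shRNAs 1 and 2 (58.5% and 63.4%) and at 43.9% with shRNA 3.

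Among the effectors that act on RNA, the 2 groups lay close together. The group holds the IFIT proteins, which bind foreign RNA ends, the oligoadenylate synthetases, which make the activator of RNase L, the kinase PKR (EIF2AK2), the helicase relative DDX60 and the exonuclease ISG20. Of 11 members, 5 differed upward and 6 downward, from -0.20 to 0.23, none called. OAS1, looked up because it is the usual indicator of a hairpin-induced response, read 8.54, 8.59 and 8.77 with shRNAs 1, 2 and 3, against 8.60 and 8.53 in the controls. Its difference was 0.07 (95% interval -0.17 to 0.32, limma adjusted p = 0.863), and only shRNA 3 lay above both controls. OASL, an inactive relative of the synthetases that aids RIG-I, read 7.44, 7.49 and 7.31, against 7.57 and 7.66 in the controls (difference -0.20, SE 0.094, limma adjusted p = 0.707). OAS3 read 9.66, 9.56 and 9.49, against 9.74 and 9.70 in the controls (difference -0.15). For both, every TIP-1 shRNA array lay below both controls by a small margin. IFIT5 was the opposite case, at 9.45, 9.48 and 9.50 against 9.41 and 9.33 in the controls (difference 0.11, limma adjusted p = 0.762). IFIT2, named after its values were seen, read 6.40, 6.58 and 7.29, against 6.49 and 6.56 in the controls, so only shRNA 3 stood clearly above. IFIT3 read 7.94, 7.54 and 8.43, against 7.84 and 7.89 in the controls, again highest with shRNA 3.

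In the ISG15 system, a ubiquitin-like tag and the enzymes that attach and remove it, 4 of 5 members differed downward (-0.42 to 0.02), none called. The tag itself, ISG15, read 8.22, 8.22 and 8.04 with shRNAs 1, 2 and 3, against 8.08 and 8.20 in the controls (difference 0.02, 95% interval -0.22 to 0.26, and -0.04 without control 1). The ligase HERC5 read 6.56, 6.97 and 7.25, against 7.26 and 7.44 in the controls (difference -0.42, SE 0.20, limma adjusted p = 0.713). USP18, which removes the tag and also damps interferon receptor signalling, read 8.01, 8.17 and 8.42, against 8.42 and 8.55 in the controls (difference -0.28, limma adjusted p = 0.71). In both genes shRNAs 1 and 2 were clearly lower and shRNA 3 was level with control 1. Without shRNA 1 the difference of HERC5 was -0.23 and that of USP18 was -0.19. The HERC family relative HERC6, named after its values were seen, read 6.56, 6.43 and 7.12, against 7.01 and 6.86 in the controls, with shRNA 3 above both. The conjugating enzyme UBE2L6 differed by -0.16.

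The measured sensors and transcription factors differed by -0.07 to 0.04, with none called and no member whose groups were separate. These means hide differences between hairpins. IRF1 read 8.05, 8.06 and 8.72 with shRNAs 1, 2 and 3, against 8.35 and 8.12 in the controls. IFIH1 read 5.47, 5.74 and 6.27, against 5.90 and 5.83 in the controls. Both were above both controls with shRNA 3, whereas IRF7 and IRF9 were below both with it. IFI16, a nuclear sensor of DNA, had the smallest p of the 5, at 10.63, 10.69 and 10.54 against 10.54 and 10.83 in the controls (difference -0.06, limma adjusted p = 0.898). Its difference was 0.08 without control 2. IRF9, the DNA-binding part of the interferon-activated complex, differed by 0.01 and IRF7, which amplifies interferon production, by -0.07. MDA5 (IFIH1) had a mean over the 5 arrays of 5.84, below the lower quartile of all rows (6.42), and so did RSAD2 at 6.26. With such dim rows an absent transcript could not be told from a low one.

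Among proteins that restrict virus entry, replication or release, 9 of 11 members differed downward (-0.69 to 0.13) and none was called. SAMD9L, an inhibitor of translation and growth, read 9.86 and 9.74 with shRNAs 1 and 2 and 10.97 with shRNA 3, against 11.07 and 10.69 in the controls (difference -0.69, SE 0.37, limma adjusted p = 0.715). Its neighbour and relative SAMD9, named after its values were seen, read 8.95, 9.14 and 10.00, against 9.88 and 9.65 in the controls. TRIM22, a ubiquitin ligase that restricts several viruses, read 8.25, 8.40 and 9.95, against 9.39 and 9.12 in the controls (difference -0.38, SE 0.50, limma adjusted p = 0.854). In these 3 genes shRNAs 1 and 2 lay well below both controls, and shRNA 3 lay between them or above. The mean difference therefore moved with the arrays used. For TRIM22 it was -0.93 without shRNA 3, -0.08 without shRNA 1, -0.15 without shRNA 2 and -0.25 without control 1. For SAMD9L it was -1.08 without shRNA 3 and -0.47 without shRNA 2. BST2, or tetherin, which holds budding virus on the cell surface, read 6.61, 6.82 and 7.37, against 7.17 and 7.41 in the controls. MX1, a GTPase that traps viral nucleocapsids, read 7.00, 6.97 and 8.10, against 7.07 and 7.73 in the controls, which themselves differed more for MX1 than for any other member (by 0.66). BST2 and MX1 were also named after their values were seen, and the sign of the MX1 difference (-0.04) turned to 0.02 with quantile normalization or median centring and to 0.28 without control 2. MX2 read 6.88, 6.95 and 6.93, against 7.05 and 7.09 in the controls (difference -0.15), with the groups separate. The IFITM proteins, which block fusion of virus with the cell, differed by -0.01 (IFITM1), 0.13 (IFITM2) and 0.05 (IFITM3).

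**Figure D3:**
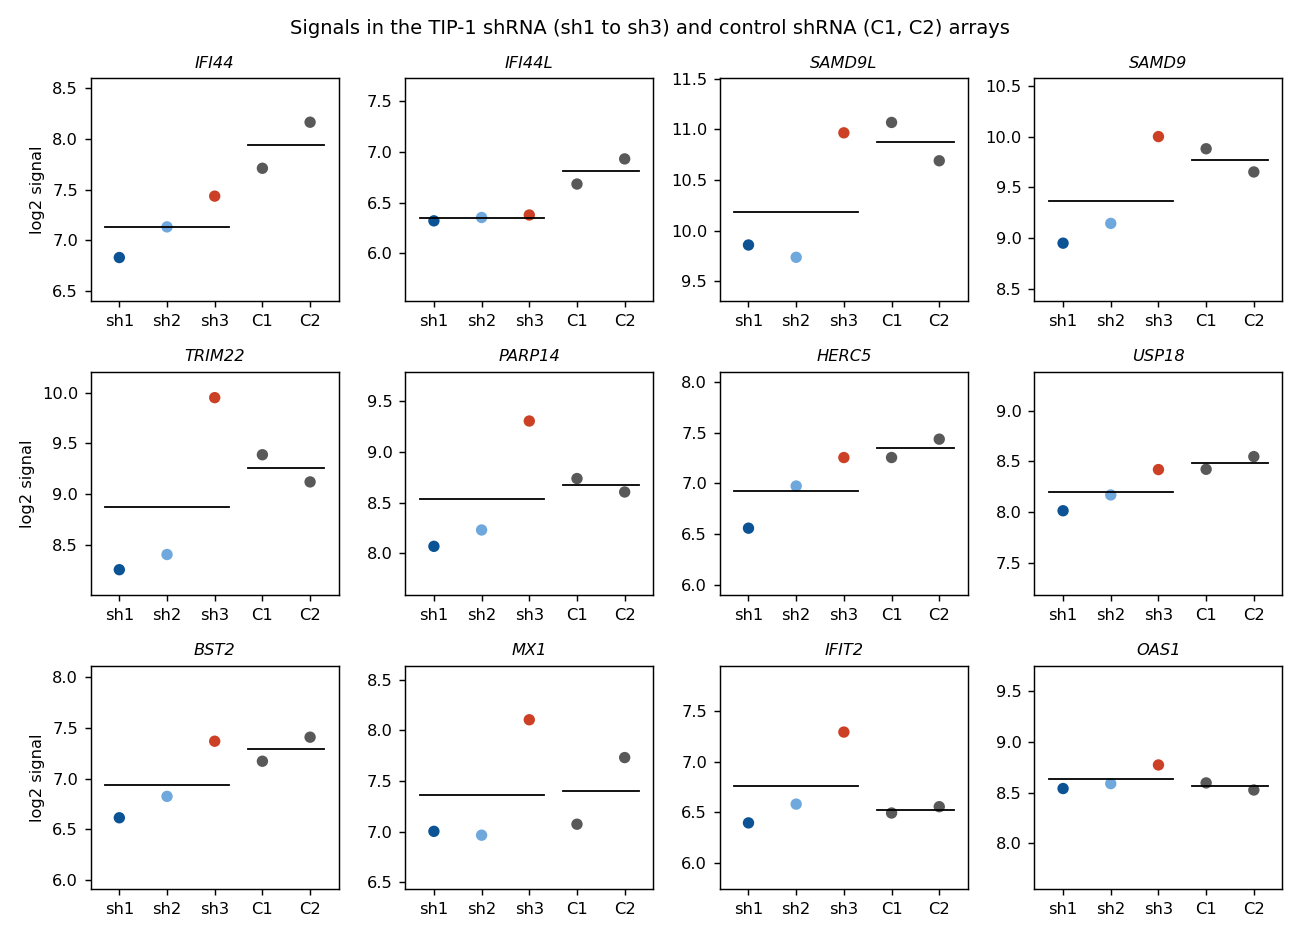
Log2 signals (y axis, the same span in every panel) of 12 members in the TIP-1 shRNA arrays (sh1 to sh3, coloured) and the control arrays (C1 and C2, grey); lines are group means. IFI44 and IFI44L lie below both controls with all 3 hairpins, SAMD9L, SAMD9, TRIM22 and PARP14 do so with sh1 and sh2 alone, and OAS1 is nearly level.

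The pair with the smallest p among the members was IFI44L and IFI44, interferon-induced genes that sit side by side on chromosome 1 and are used as indicators of interferon signalling. IFI44L read 6.32, 6.35 and 6.38 with shRNAs 1, 2 and 3, against 6.68 and 6.93 in the controls (difference -0.46, SE 0.10, 95% interval -0.70 to -0.21). IFI44 read 6.83, 7.13 and 7.44, against 7.71 and 8.17 in the controls (difference -0.81, SE 0.21, 95% interval -1.32 to -0.29). Neither passed (limma adjusted p = 0.707 for both). All 3 hairpins lay below both controls in each gene, and these were the 2 members whose interval lay wholly below 0. Controls gave 1.75-fold the IFI44 signal of TIP-1 shRNA cells. For IFI44L all 3 TIP-1 shRNA values lay under the lower quartile of row means (6.42), so no fold is given, and a low transcript could not be told from an absent one there. The SD over hairpins was 0.03 for IFI44L and 0.30 for IFI44 (n = 3 each). XAF1, which opposes inhibitors of apoptosis, read 7.00, 6.98 and 6.97, against 7.14 and 7.18 in the controls (difference -0.18, SE 0.077, limma adjusted p = 0.707). The remaining 6 of this group differed by -0.18 to 0.16. PARP14, an ADP-ribosyltransferase named after its values were seen, read 8.07, 8.23 and 9.31, against 8.74 and 8.61 in the controls. Its difference of -0.14 turned to 0.10 without shRNA 1 and 0.02 without shRNA 2. IFI6, a mitochondrial and endoplasmic reticulum protein that opposes apoptosis, read 10.54, 10.55 and 10.38, against 10.42 and 10.54 in the controls (difference 0.01, 95% interval -0.23 to 0.25, and -0.03 with quantile normalization).

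In 21 members shRNAs 1 and 2 both lay below both controls. In 8 of the 21 (OAS3, OASL, HERC5, USP18, MX2, IFI44, IFI44L and XAF1) all 3 TIP-1 hairpins lay below both controls. For HERC5 and USP18 this rests on near ties of shRNA 3 with control 1 (7.2550 against 7.2554, and 8.4195 against 8.4223). In 13 others shRNAs 1 and 2 lay below both controls and shRNA 3 did not, which is 31.7% of members against 8.29% of all genes. These were IFIT1, UBE2L6, HERC6, IFIH1, IRF1, MX1, BST2, TRIM22, SAMD9, SAMD9L, IFI35, PARP9 and PARP14. In 10 of the 13, shRNA 3 lay above both controls, against 5.42% of all genes for that order. Set against shRNAs 1 and 2 directly, shRNA 3 was above both in 26 members (63.4%, against 37.8% of genes) and below both in 12, against 44.5% of genes. The median member was 0.21 higher with shRNA 3 than with the mean of shRNAs 1 and 2, where the median gene was -0.02. The largest gap was that of TRIM22, at 1.62. The motif was found in 7 of 12 members with a window in the group below both controls with shRNAs 1 and 2 alone, in 4 of 5 in the group below with all hairpins, and in 12 of the other 16.

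With shRNA 3 left out, 2 TIP-1 shRNA arrays faced 2 controls, and the median of the members was -0.12. The 21 members with both remaining hairpins below both controls are those counted above, 51.2% against 22.3% of genes. The array of shRNA 3 is set apart here after its member values were seen to differ. The counts without it are therefore no separate support for that contrast. Still no member was called (limma, smallest adjusted p 0.246, for TRIM22), while 0.015% of rows were called higher and 0.003% lower. At an unadjusted p under 0.05, 12 members were lower and 1 higher, against 4.39% and 3.74% of genes. Leaving out shRNA 1 or shRNA 2 in place of shRNA 3 gave 2 lower members each, with no share of all genes given here. The 12 included SAMD9L (difference -1.08, SE 0.15), TRIM22 (-0.93, SE 0.12), IFI44 (-0.96, SE 0.19), SAMD9 (-0.72, SE 0.12), BST2 (-0.57, SE 0.13) and PARP14 (-0.52, SE 0.10). Controls gave 2.12-fold the SAMD9L signal and 1.90-fold the TRIM22 signal of the mean of shRNAs 1 and 2.

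Genes next to each other in the genome did not all share a pattern. SAMD9 and SAMD9L, which are adjacent, both lay below both controls with shRNAs 1 and 2 alone. PARP9 and PARP14 did the same, and so did DTX3L, the ligase partner of PARP9, which lies between them. It read 9.63, 9.71 and 10.50, against 10.12 and 10.05 in the controls. Among the adjacent synthetase genes, OAS3 lay below both controls with every hairpin while OAS1 and OAS2 overlapped them. Of the neighbours MX1 and MX2, MX2 was below both controls with every hairpin and MX1 was above both with shRNA 3. RSAD2 and CMPK2, also adjacent, differed by -0.04 and -0.18, and neither was separate from the controls.

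Outside the members, 73 of 80 further genes of the pathway were measured, and 0 were called in either direction (limma, adjusted p over all rows), with 1 higher and 1 lower at an unadjusted p under 0.05. Of 10 interferon genes, 7 differed downward and 3 upward, with a median of -0.07. IFNB1, the interferon made first after RNA sensing, read 5.82, 5.68 and 5.61 with shRNAs 1, 2 and 3, against 5.74 and 5.97 in the controls, and IFNL1, a type III interferon, differed by -0.17. IFNW1 differed by -0.22. Of 9 receptor chains and kinases, 7 differed upward (median 0.14, but 0.02 without control 2). The receptor chain IFNAR2 read 8.61, 8.47 and 8.76, against 8.39 and 8.33 in the controls (difference 0.26, SE 0.11, limma adjusted p = 0.707). IFNAR1 differed by 0.16 and IL10RB, a chain of the type III receptor, by 0.15.

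Of 17 sensors and relays, 7 differed upward and 10 downward, with a median of -0.03. MYD88, the adaptor of most Toll-like receptors, read 10.42, 10.44 and 10.09, against 9.75 and 9.87 in the controls (difference 0.51, SE 0.13, limma adjusted p = 0.707), so every hairpin lay above both controls. TBK1 differed by 0.24 and the RNA sensor TLR3 by -0.21. RIG-I (RIGI), named after its values were seen, read 7.00, 7.11 and 7.81, against 7.44 and 7.24 in the controls, the order seen in SAMD9 and TRIM22. Of 27 further interferon-induced genes, 13 differed upward and 14 downward (median -0.02). The smallest p belonged to BATF2 (difference -0.31, SE 0.11), GBP5 (-0.23) and IFI30 (0.31, but 0.10 without shRNA 3). In 5 of the 27, 18.5%, shRNAs 1 and 2 lay below both controls and shRNA 3 did not, against 8.29% of all genes. The same order held for 4 of the 10 dampers, 3 of the 17 sensors and relays, 1 of the 9 receptors and kinases and 0 of the 10 interferon genes. Among the 5 further interferon-induced genes was PARP12, a relative of PARP9 and PARP14 named after its values were seen. It read 10.06, 10.06 and 10.79, against 10.61 and 10.70 in the controls. Among 10 dampers of the pathway, 4 differed downward. SOCS1, an inhibitor of the receptor kinases, differed by -0.23 and PIAS3 by -0.14, though PIAS3 came to -0.03 without control 2. TNFAIP3 (A20), which restrains NF-kappa-B signalling, read 8.33, 8.09 and 8.79, against 8.68 and 8.88 in the controls (difference -0.38, SE 0.21, limma adjusted p = 0.716).

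**Figure D4:**
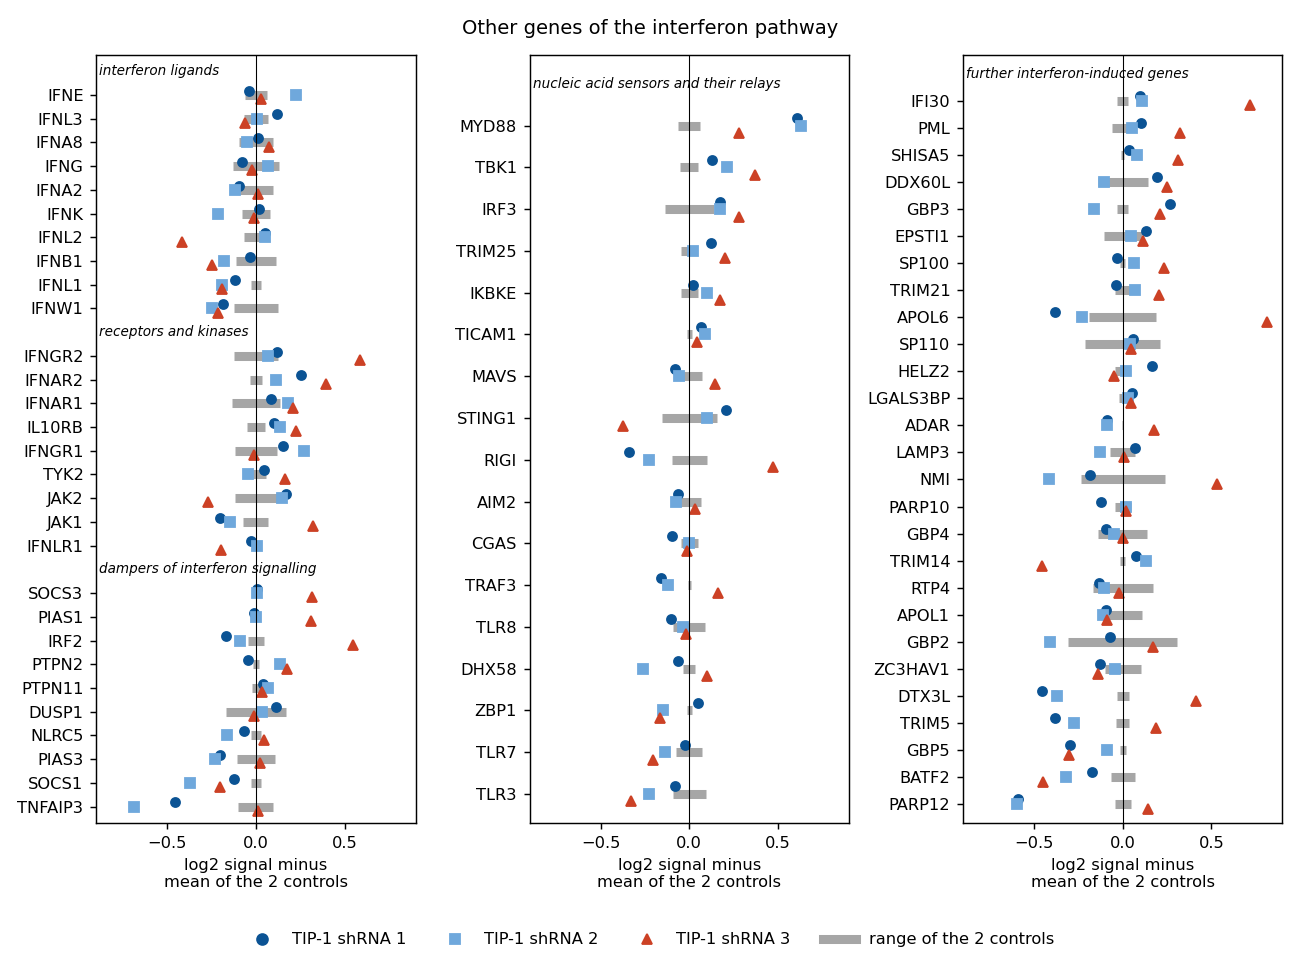
Differences of 73 other genes of the interferon pathway from the mean of the 2 controls (x axis, log2 units), 1 symbol per TIP-1 shRNA array; grey bars span the 2 controls. The interferon genes stay within 0.42 log2 units of the control mean, MYD88 lies above both controls with every hairpin, and PARP12, DTX3L and RIGI are low with shRNAs 1 and 2 and high with shRNA 3.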

How the data were processed

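One Affymetrix whole-transcript array per culture was read for 3 TIP-1 shRNA and 2 control shRNA cultures of D54. The deposited values are log2 signals. The authors processed the arrays with the Affymetrix Exon Array Computational Tool, per the series' design text given with the labels. No source used here gives its version, normalization or genome build. That text names an exon array, while the row identifiers matched GEO's annotation of a gene-level array. The values were used as deposited. Array medians ran from 7.88 to 7.98. Medians and lower quartiles were lower, and upper quartiles higher, in every TIP-1 shRNA array than in both controls. This offset is not small beside the members' median difference (-0.09), and median centring was among the alternatives. The annotation gave 19460 of 33297 rows 1 symbol; 19429 were looked up by gene identifier in a GRCh38.p14 gene table and none changed. The brightest such row stood for each gene. The 2 groups were compared by lmFit and eBayes of limma 3.58.1 (R 4.3.3; two-sided, no block). Calls needed a Benjamini-Hochberg p under 0.05 across all 33297 rows, and the procedure was checked on simulated data. Intervals are unadjusted 95% intervals. The p-values measure the spread between 2 clones and between 3 hairpins, and 5 arrays limit the precision. No batch is labelled.

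The members, role groups and pathway lists were chosen with earlier results of these data known. Genes were named where all 3 TIP-1 shRNA arrays lay on 1 side of both controls, where 1 array was 2-fold from the control mean and outside both, or where p was smallest in a role group (3 smallest in a pathway list). All other genes were named after their values were seen, OAS1 and ISG15 among them as textbook indicators. Alternatives were quantile normalization, median centring, bright rows only, a trended robust eBayes, array weights, the replicate block, the mean of a gene's rows, and leaving out each array.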

Additional observations from a re-analysis of the deposited data

How the results depend on the processing

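No member was called under any alternative run (smallest adjusted p 0.093, SAMD9L with the replicate block), and no gene of the pathway lists either. Rows past the threshold numbered 1 as deposited, 2 with array weights, 15 with the replicate block, and 0 to 6 when 1 array was left out. Deviations of same-numbered arrays from their group means correlated at r = 0.049 (number 1) and r = -0.053 (number 2), which gave no ground for pairing. The block leaves shRNA 3 without a partner, so its differences are those found without shRNA 3 (SAMD9L -1.08 and TRIM22 -0.93 in both). Bright rows only, which drops 19 members, left 11 of 22 members below 0 and 2 below both controls with every hairpin. Median centring gave 2 members above both controls with every hairpin, 1 member 2-fold lower with shRNA 1, 11 above both controls with shRNA 2 and 10 below both with shRNA 3. Leaving out 1 array loosens the separation by construction and gave 9 to 21 members with all hairpins below and 3 to 4 above. With 1 control left out, 11 to 12 members lay above with shRNA 1, 9 to 13 with shRNA 2, and 1 to 2 were 2-fold lower with shRNA 1. For these counts with bright rows, median centring or 1 array left out, no share of all genes is given here, except for the 21 without shRNA 3. They are not read as results about the members. The member medians were -0.14 (shRNA 1), -0.11 (shRNA 2) and 0.05 (shRNA 3) with quantile normalization, and -0.14, -0.0925 and 0.17 with median centring. With 1 control they were -0.17 to -0.12 for shRNA 2 and -0.0127 to 0.021 for shRNA 3. Pathway medians with median centring were -0.0075 for ligands, 0.20 for receptors and kinases and 0.11 for dampers. Sensors gave 0.0822 with bright rows. Dampers gave -0.0114 with array weights and -0.0591 with the replicate block. With 1 array left out, receptors gave 0.019 to 0.21 and dampers -0.0591 to 0.0732. IFI16 ran from -0.21 to 0.0824 and reversed, to 0.0824, without control 2. Among the 12 members and 15 pathway genes named by the rule, the other 312 values kept their direction and side of the threshold. Over all 41 members, 17 changed sign under at least 1 alternative, each with a difference of at most 0.232 in size as deposited. Members lower at an unadjusted p under 0.05 numbered 0 with bright rows, 9 with array weights and 12 with the replicate block. They numbered 2, 2 and 12 without shRNAs 1, 2 and 3. Except without shRNA 3, no share of all genes is given here for these settings. Rows past the threshold also rose with array weights and the block, so these counts are not read as results about the members. The count with the block repeats the contrast without shRNA 3 and is no separate result. The cause of the other shifts was not tested. With no detection call, dim rows limit what can be said of low transcripts.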
